A study of Mus musculus with 7 samples.

Results

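A set of 40 genes of the cell cycle were followed through immune cells of the central nervous system of mice with experimental autoimmune encephalomyelitis (EAE), a T cell driven disease model of multiple sclerosis. The 40 genes were taken from a list of symbols drawn up for these data, and all 40 of 40 were present among the 27998 genes shared by the files of all 7 libraries. They comprised 11 genes of DNA replication, 24 genes of mitosis and 5 genes that dividing cells raise but resting cells also express. Each of the 40 genes had at least 1 unique molecular identifier (UMI, a tag that marks 1 captured RNA molecule) in each of the 7 libraries.

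A dividing cell copies its DNA in S phase and separates the copies in mitosis. Genes of DNA copying are switched on before and during S phase by E2F factors, whereas most mitotic genes peak later, through promoters that carry CCAAT boxes and an element named CHR (cell cycle genes homology region). In the inflamed central nervous system, T cells restimulated by myelin antigen, resident microglia and immature myeloid cells are all known to divide. LAG3, the receptor removed in the mutant mice, is an inhibitory receptor of activated T cells that binds MHC class II.

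The comparison was of Lag3KO with WT mice, B6 mice given MOG35-55 peptide to induce EAE and taken at the peak of disease. The genotype labels read Lag3wt and Lag3Floxed, and the labels state 5 mice per group, matched for age and sex, with no age. They name neither a Cre line nor the part of Lag3 removed, nor which mice gave which library, so the spread between libraries of a group may be technical. Cells were enriched on magnetic beads for CD4 (2 WT_CD4 and 2 Lag3KO_CD4 libraries) or for CD45, a marker of all leukocytes (2 WT_CD45 libraries and 1 Lag3KO_CD45 library).

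The libraries held 1428 to 2517 barcodes and 4585251 to 18940186 UMIs. A barcode had a median of 2086.5 to 2599.5 UMIs after CD4 enrichment and of 5683 to 6407 after CD45 enrichment. The 40 genes together took 0.271% to 0.398% of the UMIs of a library. No pair of libraries shared more than 12 barcodes. Lag3 had 289, 107 and 304 UMIs in WT_CD4 1, WT_CD4 2 and WT_CD45 1 and 0 to 2 UMIs in the Lag3KO libraries, but only 4 UMIs in the library labelled WT_CD45 2, which goes against its label. Haemoglobin genes reached 13124 and 3190 UMIs per 1000000 (CPM) in WT_CD4 2 and Lag3KO_CD4 2. Levels in a class are also given in CPM, per 1000000 UMIs summed over the class in a library, and are not set against each other between genes. Cell classes were rebuilt by clustering without cell cycle genes. Each class name stands for clusters that are like that cell type by marker genes, and a cluster without enough markers is named by its leading genes.

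The promoters of the mitotic and the replication genes are shown first because their motifs separate the 2 lists. RefSeq promoters on GRCm38.p6 matched 35 of the 40 genes. The stretches printed run from 120 bases before to 30 bases after the transcription start, 5′ to 3′ on the strand of the gene, and capitals mark motif matches. Ccnb2 (cyclin B2, which activates the mitotic kinase CDK1; chr9:70421525-70421674, minus strand), Cdca8 (borealin, of the chromosomal passenger complex; chr4:124936888-124937037, minus strand), Kif23 (a kinesin of cell separation; chr9:61946770-61946919, minus strand) and Top2a (topoisomerase II alpha, which untangles DNA; chr11:99024160-99024309, minus strand) are mitotic genes. Mcm6 (a subunit of the replicative helicase; chr1:128359676-128359825, minus strand) and 2810417H13Rik (named Pclaf in RefSeq, a PCNA-associated factor; chr9:65890203-65890352, plus strand) are replication genes.
Ccnb2: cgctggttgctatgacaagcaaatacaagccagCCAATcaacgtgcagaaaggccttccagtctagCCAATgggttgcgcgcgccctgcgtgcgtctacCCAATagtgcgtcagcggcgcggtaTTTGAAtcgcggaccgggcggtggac
Cdca8: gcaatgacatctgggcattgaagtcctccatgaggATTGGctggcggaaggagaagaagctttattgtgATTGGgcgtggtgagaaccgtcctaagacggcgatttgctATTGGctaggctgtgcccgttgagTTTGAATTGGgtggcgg
Kif23: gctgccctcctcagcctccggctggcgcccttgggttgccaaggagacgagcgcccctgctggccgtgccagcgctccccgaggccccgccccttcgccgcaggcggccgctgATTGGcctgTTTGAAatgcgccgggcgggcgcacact
Top2a: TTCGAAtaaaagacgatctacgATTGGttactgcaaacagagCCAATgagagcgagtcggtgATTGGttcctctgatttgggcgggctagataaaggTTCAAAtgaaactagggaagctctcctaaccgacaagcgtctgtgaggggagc
Mcm6: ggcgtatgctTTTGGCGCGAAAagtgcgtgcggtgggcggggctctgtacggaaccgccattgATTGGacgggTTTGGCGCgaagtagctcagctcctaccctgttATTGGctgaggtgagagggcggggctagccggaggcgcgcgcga
2810417H13Rik: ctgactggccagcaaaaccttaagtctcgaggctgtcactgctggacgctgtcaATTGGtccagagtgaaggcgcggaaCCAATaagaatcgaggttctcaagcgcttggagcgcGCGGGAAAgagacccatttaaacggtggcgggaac

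Motifs were searched on both strands. The CCAAT box was CCAAT, the CHR was TTTGAA or TTCGAA, and the E2F motif was any of TTTCGCGC, TTTGGCGC, TTTCCCGC and TTTGGCGG. A CHR and a CCAAT box overlap in Cdca8 (TTTGAATTGG), and 2 E2F matches overlap in Mcm6. Ccnb2 and Cdca8 carry several CCAAT boxes followed by a CHR at the start, whereas Mcm6 carries E2F matches and no CHR in the stretch shown. A match is a description of letters and not evidence of binding.

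Over 300 bases (250 before to 50 after the start), 18 of 20 mitotic genes with a promoter, 9 of 11 replication genes and 3 of 4 of the broad genes held a CCAAT box, against 37.4% of all 32851 promoters and 41.1% of genes. The CHR was held by 16 of 20 mitotic and 2 of 11 replication genes, against 19.2% of promoters and 21.7% of genes. All 16 of those mitotic genes also held a CCAAT box, a pair held by 7.52% of promoters and 8.61% of genes. The E2F motif went the other way, with 5 of 11 replication genes and 1 of 20 mitotic genes, against 2.37% of promoters and 2.70% of genes. The CHR nearest to the start began at or after it in 11 of the 16 mitotic genes, and over all 16 it lay at a median of 6 bases into the gene, from 98 bases before to 40 after the start. With only the 150 bases before the start, 5 of 20 mitotic genes held a CHR, against 9.70% of promoters.

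**Figure D1:**
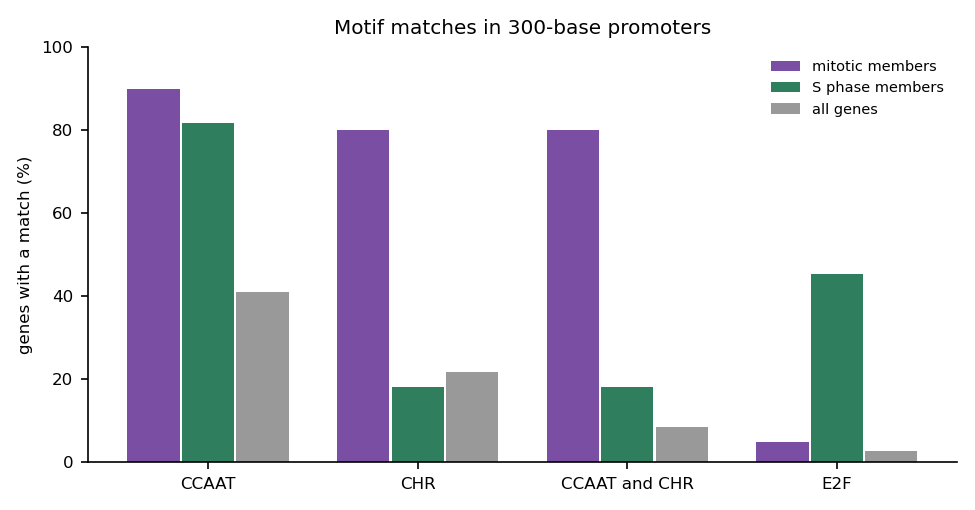
Share of genes (%) whose 300-base RefSeq promoter holds each motif, for the 20 mitotic and 11 replication genes with a promoter and for all genes of the table. The CHR stands at 80.0% of mitotic genes and 18.2% of replication genes, and the E2F motif at 5.00% and 45.5%.

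A cell was called cycling from the genes themselves. Each barcode was thinned to 1000 UMIs, so that deep and shallow cells had the same chance of a hit, and was cycling with at least 2 UMIs over the 11 replication genes or at least 2 over the 24 mitotic genes. The 5 broad genes took no part in the call. Barcodes under 1000 UMIs were left out, 59 to 144 of each CD4 library and none of the CD45 libraries. No test was made on the shares, and their 95% Clopper-Pearson intervals cover counting error only.

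By this call, with doublet-like barcodes included in these totals, 444 of 6130 barcodes of the CD4 libraries (7.24%, interval 6.61% to 7.92%) and 362 of 7076 of the CD45 libraries (5.12%, 4.61% to 5.66%) were cycling. Doublet-like barcodes, which belong to no class here, made up 14 of the 444 and 7 of the 362. In the CD4 libraries 164 of the cycling barcodes met the replication criterion alone, 175 the mitotic criterion alone and 105 both. CD4 T cells made up 71.2% of the cycling barcodes of the CD4 libraries and 25.97% of those of the CD45 libraries. The cells that cycled differed with the enrichment. In the CD45 libraries 13.8% of them lay in a cluster led by Ctsg and Elane and 24.9% in barcodes that carried both T cell and myeloid UMIs, which were set apart.

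Classes taken to divide little gave the background of the call in the CD45 libraries. Migratory dendritic cells had 1, 0 and 1 cycling barcodes of 104, 65 and 101 in WT_CD45 1, the library labelled WT_CD45 2 and Lag3KO_CD45 1. Plasmacytoid dendritic cells had 0, 0 and 1 of 60, 61 and 81, where a count of 0 in 60 allows a share of up to 5.00%. Their median depths, 4287.5 and 4637.5 UMIs, were above those of CD4 T cells in the same libraries (3305.5 UMIs). Shares of about 1% in the CD45 libraries are thus at the background. Plasmacytoid dendritic cells of the CD4 libraries had 2 cycling barcodes of 30 (interval 0.818% to 22.1%), too few to set a background there.

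Regulatory T cells (Tregs, suppressors of immune responses) were named from a list of markers, since their defining factor Foxp3 had a UMI in only 3.41% of Treg barcodes of the CD4 libraries, against 34.8% after CD45 enrichment (0.188% and 0.596% of Tconv). Ikzf2, another Treg marker, had one in 70.1% and 90.4% of Tregs, so the class was not alike in both enrichments. Tregs cycled at 8.22% (37 of 450), 7.78% (26 of 334), 6.25% (12 of 192) and 5.66% (21 of 371) of barcodes in WT_CD4 1, WT_CD4 2, Lag3KO_CD4 1 and Lag3KO_CD4 2. Both Lag3KO_CD4 libraries lay below both WT_CD4 libraries, with means of 5.96% ± 0.417 (SD, n = 2) and 8.00% ± 0.310 (SD, n = 2), but the binomial intervals of the 4 libraries overlapped. The difference of the means, -2.05 points, was -0.270 points with at least 3 UMIs of a list required and -3.59 points without thinning. In the CD45 libraries the share of cycling Tregs was 20.7% (6 of 29), 35.4% (23 of 65) and 34.1% (14 of 41) in WT_CD45 1, the library labelled WT_CD45 2 and Lag3KO_CD45 1. The share in Lag3KO_CD45 1 lay between those of WT_CD45 1 and of the library labelled WT_CD45 2, whose label is doubtful, and the intervals overlapped. Without thinning the shares of Tregs were 23.1%, 24.4%, 16.8% and 23.5% in the CD4 libraries and 48.3%, 52.3% and 58.5% in the CD45 libraries.

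Other CD4 T cells (Tconv) cycled at 7.31% (76 of 1039), 4.84% (37 of 764), 8.38% (62 of 740) and 4.46% (45 of 1008) in the same order of CD4 libraries. The genotypes overlapped, and the replicates of one genotype lay as far apart as 8.38% and 4.46%. In the CD45 libraries Tconv cycled at 4.26% (6 of 141), 11.3% (26 of 230) and 14.4% (19 of 132). The share in Lag3KO_CD45 1 was above that in both libraries labelled WT_CD45, with overlapping intervals, by 6.61 points on the mean, 10.1 points without the library labelled WT_CD45 2 and 3.09 points without WT_CD45 1. Unthinned, the order changed to 23.4%, 32.2% and 26.5%, so that Lag3KO_CD45 1 stood 1.27 points below the WT mean.

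The difference between Tregs and Tconv depended on the call in the CD4 libraries and kept its sign in the CD45 libraries. The mean Treg share exceeded that of Tconv by 0.729 points over the 4 CD4 libraries, and the sign turned to -2.96 points when barcodes were thinned to 2000 UMIs and to -1.45 with at least 3 UMIs of a list, whereas without thinning it was 5.61 points. In the CD45 libraries it exceeded it by 20.1 points, and by 13.6 to 25.7 points under the other ways of calling. The CD45 values rest on 29 to 65 Tregs per library, and the enrichment and the depth of the libraries cannot be told apart. Myeloid marker UMIs in Tregs were 26.2 to 29.2 per 10000 in the CD45 libraries and 5.07 to 5.88 in the CD4 libraries, and their part in the result was not tested.

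**Figure D2:**
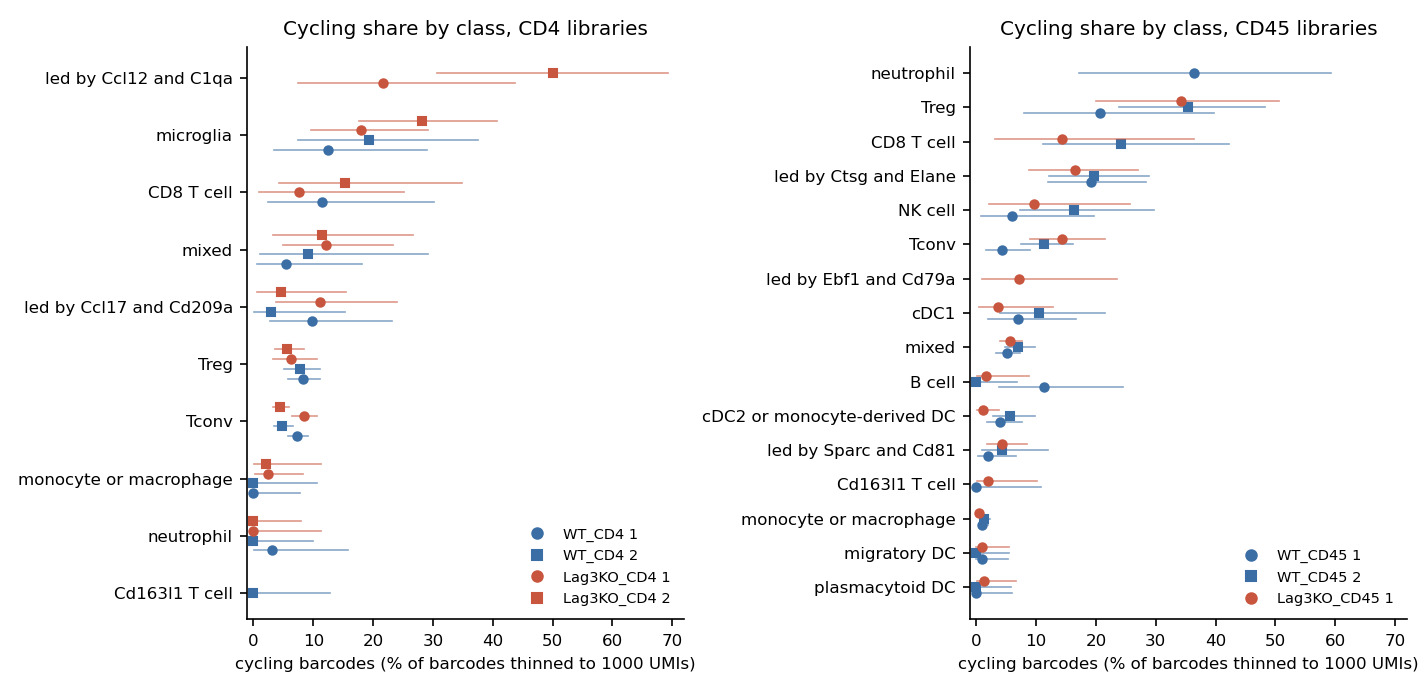
Share of cycling barcodes (%, after thinning to 1000 UMIs) in each class with at least 20 barcodes of a library, CD4 libraries on the left and CD45 libraries on the right. Points are libraries, blue WT and red Lag3KO, and lines are 95% Clopper-Pearson intervals. Tregs stand at 5.66% to 8.22% on the left and 20.7% to 35.4% on the right.

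Within Tconv the share differed between clusters that had been formed without cell cycle genes. In the resting-like cluster led by Igfbp4, Ccr7 and Dapl1, which holds the lymph node homing receptor Ccr7, 2.16%, 2.42%, 2.33% and 2.23% of barcodes cycled in WT_CD4 1, WT_CD4 2, Lag3KO_CD4 1 and Lag3KO_CD4 2. In the cluster led by Nrgn, Tff1 and Ccl1 the share was 14.2% (17 of 120), 18.9% (7 of 37), 13.9% (30 of 216) and 5.26% (2 of 38). All 4 libraries were lower in the first cluster than in the Nrgn cluster, and these clusters had median depths of 1469 to 2018.5 and 4116.5 to 4818 UMIs. The cluster led by the cytotoxic genes Gzmk and Ccl5 lay between, at 9.36%, 6.90%, 4.44% and 5.30%. No such step was seen after CD45 enrichment, with 5.88%, 12.5% and 12.8% in a cluster led by Dapl1 and Igfbp4 and 6.67%, 7.94% and 8.82% in one led by Nrgn and Ccl1. Of barcodes with at least 1000 UMIs, Lag3KO_CD4 1 placed 216 in the Nrgn cluster, against 37 to 120 in the other CD4 libraries, and that library also had the highest Tconv share.

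CD8 T cells cycled at 11.5%, 7.69% and 15.4% in the 3 CD4 libraries with 26 of them each, and at 24.2% (8 of 33) and 14.3% (3 of 21) in the library labelled WT_CD45 2 and Lag3KO_CD45 1. T cells marked by Cd163l1, a gene of gamma delta T cells, had 2 cycling barcodes of 74 in the CD4 libraries and 2 of 99 in the CD45 libraries. Natural killer cells cycled at 5.88% (2 of 34), 16.3% (8 of 49) and 9.68% (3 of 31) in WT_CD45 1, the library labelled WT_CD45 2 and Lag3KO_CD45 1. These counts are small, and the intervals of the libraries overlapped within each class.

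The 40 genes were unequal as markers of the cycling CD4 T cell. Cycling barcodes were 6.45% of the CD4 T cells of the CD4 libraries and held 11.2% of all their UMIs. Their median depth was 1.58 to 2.16 times that of other CD4 T cells in the 7 libraries. They held 97.0% of the UMIs of Cenpf (a kinetochore protein), 94.8% of those of Ccna2 (cyclin A2) and 91.2% of those of Birc5 (survivin, of the chromosomal passenger complex). Over the 24 mitotic genes the share ran from 47.4% for Cenpa (the centromeric histone H3) to that of Cenpf, with a median of 84.1%. These values describe the call, which used those genes, and carry no test.

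Replication genes were spread more widely. Cycling barcodes held 87.6% of the UMIs of 2810417H13Rik and 81.5% of those of Rrm2, the regulated subunit of the ribonucleotide reductase that makes DNA precursors. They held only 30.2% of those of Mcm6, 30.6% of those of the helicase subunit Mcm2 and 30.4% of those of Pcna, the sliding clamp of replication, and the median of the 11 genes was 45.5%. Mcm6 had a UMI in 45.6% of cycling and 10.7% of other barcodes, and Cenpa in 58.2% and 14.8%, whereas Ccna2 had one in 33.2% and 0.175%. In the CD45 libraries, where cycling barcodes held 23.1% of the UMIs, the ranges were 64.6% to 100% for mitotic and 45.7% to 91.2% for replication genes.

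The 5 broad genes were not used in the call and were higher in cycling CD4 T cells in 7 of 7 libraries. H2afz, the histone variant H2A.Z, stood at 2555 to 3683 CPM in cycling and 874 to 1324 in other CD4 T cells. Hmgb2, a DNA bending protein, stood at 2084 to 3232 and 413 to 777, and the tubulin gene Tubb5 at 1224 to 1705 and 238 to 348. The tubulin gene Tuba1b stood at 1049 to 1662 and 122 to 298. Stmn1 (stathmin, which destabilises microtubules) stood at 877 to 1214 and 13.6 to 125, and cycling barcodes held 80.7% of its UMIs in the CD4 libraries. The ranges did not overlap for any of the 5 genes, which were left out of the test because they belong to the 40.

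Genes outside the 40 were tested in cycling against other CD4 T cells, 1 sum of counts of each kind per library, with the library as a block in edgeR's quasi-likelihood test. Of 6632 genes tested, 856 rose (12.9%) and 759 fell (11.4%) at an adjusted p under 0.05. Of a list of 42 other mitotic genes 36 were tested and 36 rose, with a median log2 fold change of 4.13. Of 32 other replication genes 31 were tested and 31 rose, with a median of 2.02, and 9 of 9 tested histone genes rose, with a median of 2.79. Over all genes tested the median was -0.04. The filter on low counts could be met by the cycling sums alone. List genes that are low in other CD4 T cells thus entered the test by being high in cycling ones. The counts and medians of the lists are therefore a description. Cycling T cells were also higher in mean doublet score, at 0.443 to 0.703 against 0.228 to 0.522, in each of the 7 libraries. Their myeloid marker UMIs, 4.33 to 4.78 per 10000 in the CD4 libraries, were close to those of other CD4 T cells (4.64 to 5.34). After CD45 enrichment they were 26.9 against 29.4, 24.2 against 23.9 and, in Lag3KO_CD45 1, 36.0 against 24.4, and their part in the result was not tested.

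The 10 genes with the smallest p among those that rose were Cks1b, Cdc20, Cks2, Hist1h2ap, H2afx, Hmgn2, Asf1b, H2afv, Ptma and Spc25. Cks1b, a subunit of cyclin-dependent kinases, stood at 214 to 508 CPM in cycling and 11.3 to 37.4 in other CD4 T cells. Its log2 fold change was 4.05 ± 0.13 (SE; edgeR adjusted p = 8.98e-21). Cdc20, an activator of the anaphase-promoting complex, stood at 35.7 to 178 and 1.33 to 5.67, with a log2 fold change of 5.46 ± 0.20 (SE). H2afx, a histone variant of DNA repair, rose by 2.79 on the log2 scale and Ptma, a chromatin protein, by 1.39. The ranges of Cks1b and Cdc20 over the libraries did not overlap between cycling and other CD4 T cells. Both are on the list of other mitotic genes. Cdc20, low in other CD4 T cells, could meet the filter through the cycling sums alone. Barcodes were called cycling by mitotic and replication genes, so the values of these genes, too, are a description.

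The 10 genes with the smallest p among those that fell were Malat1, Btg1, Hcst, Rps27rt, Fos, Rpl13a, Rabac1, Klf2, Il7r and Junb. Btg1, an antiproliferative factor, stood at 404 to 1158 CPM in cycling and 942 to 1762 in other CD4 T cells and was lower in 7 of 7 libraries. Its log2 fold change was -0.81 ± 0.07 (SE; edgeR adjusted p = 2.47e-11). Il7r, the receptor of the survival cytokine IL-7, fell by 0.97 on the log2 scale, and Klf2, a factor of T cell quiescence, fell by 0.90. Of 8 resting T cell genes 7 fell, among them Tcf7, Ccr7 and S1pr1, with a list median of -0.83.

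Genes that start or brake the cycle did not move together. Of 9 tested G1 cyclins, E2F factors and Myc genes, 5 rose (E2f1, E2f2, Myb, Cdk4 and Cdk2), 1 fell (Ccnd2) and 3 did not pass the test (Ccnd3, Cdk6 and Myc), with a median of 0.97. E2f1, which drives S phase genes, rose by 2.96 on the log2 scale, whereas Ccnd2, a G1 cyclin, fell by 0.62. Of 14 cycle inhibitors 5 rose (Cdkn2a, Cdkn2c, Cdkn2d, Cdkn1a and Ccng2) and 5 fell (Btg1, Btg2, Klf2, Cdkn1b and Tob1), with a median of -0.14. Cdkn2c, an inhibitor of CDK4 and CDK6, rose by 2.01 on the log2 scale and Cdkn1b, the inhibitor p27, fell by 0.56.

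Of 10 activation genes 2 rose (Il2ra and Ctla4), 2 fell (Cd69 and Nr4a1) and 6 did not pass, with a median of 0.02. Il2ra, the high-affinity receptor chain of IL-2, had a log2 fold change of 0.54 ± 0.11 (SE; edgeR adjusted p = 0.000222). Ctla4, an inhibitory receptor, had 0.39 ± 0.12 (SE; edgeR adjusted p = 0.0109). Both are also Treg genes, and cycling CD4 T cells held a larger share of Tregs than other CD4 T cells in 6 of 7 libraries (46.9% against 17.1% in the library labelled WT_CD45 2, for example). Neither call held within 1 kind of T cell, with edgeR adjusted p of 0.132 and 0.246 for Il2ra and 0.759 and 0.700 for Ctla4 in Tconv alone and Tregs alone.

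**Figure D3:**
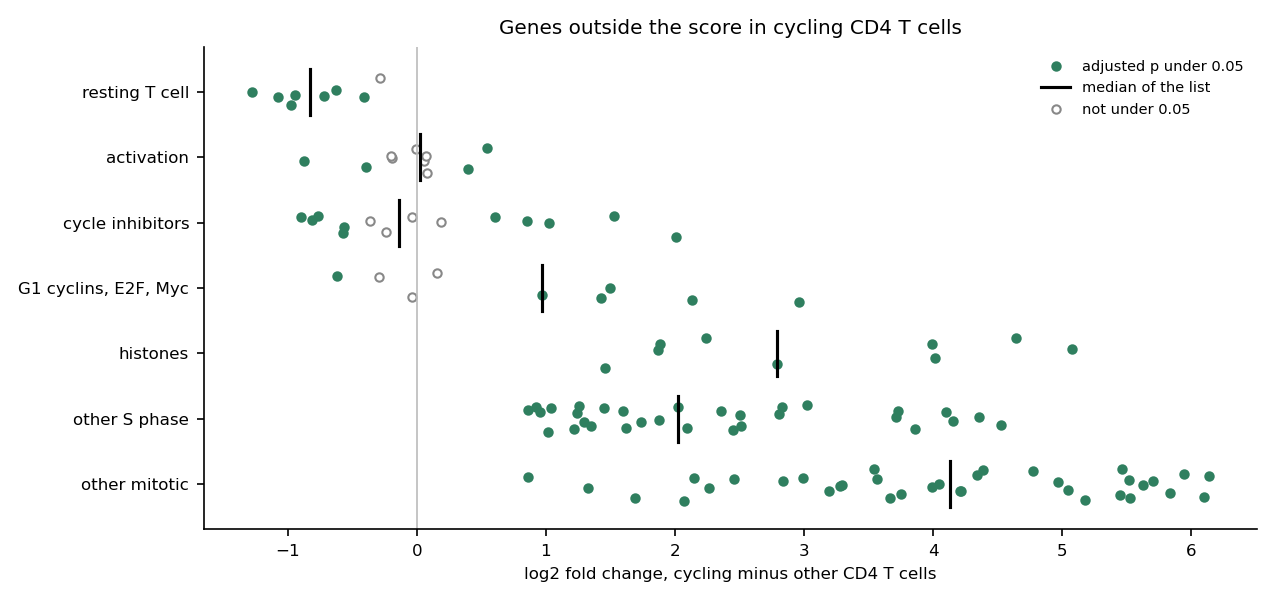
Log2 fold change of genes outside the 40 in cycling minus other CD4 T cells over 7 libraries, by list. Filled points have an edgeR adjusted p under 0.05 and vertical bars are list medians. Other mitotic genes stand at a median of 4.13 and resting T cell genes at -0.83.

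Lag3KO and WT were then compared gene by gene in Tregs, over both enrichments with the enrichment as a term. All fits over both enrichments counted the library labelled WT_CD45 2 as WT, despite its near lack of Lag3 UMIs. Of the 40 genes 34 passed the filter on low counts, and 0 of 34 were called at an edgeR adjusted p under 0.05, where 0.172% of all genes tested were. At an unadjusted p under 0.05 there were 2 of 34 (3.75% of all genes), and DESeq2 called 0 at the adjusted threshold. The fold changes had either sign, 19 positive and 15 negative, with a median of 0.02 (-0.00 over all genes tested). A sum over a class does not tell fewer cycling cells from less RNA of a gene per cell.

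In the CD4 libraries alone 0 of 30 tested genes were called in Tregs (0.14% of all genes), 8 had an unadjusted p under 0.05 (4.91% of all genes) and 23 were negative. 2810417H13Rik had the smallest p, with 67.2 and 51.3 CPM in WT_CD4 1 and 2 and 30.4 and 29.8 in Lag3KO_CD4 1 and 2. The genotypes did not overlap, at a log2 fold change of -0.97 ± 0.22 (SE; edgeR adjusted p = 0.228). Tuba1b stood at 202 and 222 in WT_CD4 and at 166 and 119 in Lag3KO_CD4, with -0.60 ± 0.16 (SE; edgeR adjusted p = 0.483). Stmn1 stood at 96.0 and 85.5 against 75.9 and 42.7, with -0.68 ± 0.22 (SE; edgeR adjusted p = 0.835). All 3 were lower in both Lag3KO_CD4 libraries, but none passed the test. They were picked by their p in this same comparison, which favours genes whose genotypes do not overlap. Mcm6 stood at 53.5, 44.3, 44.1 and 51.9 with overlapping genotypes. The count of calls was 1 without WT_CD4 2, 1 without the filter and 2 with haemoglobin UMIs as a term, and DESeq2 called 0.

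The order was not the same in Tregs of the CD45 libraries. 2810417H13Rik stood at 170, 425 and 288 CPM in WT_CD45 1, the library labelled WT_CD45 2 and Lag3KO_CD45 1, and Stmn1 at 276, 675 and 679. Rrm2 stood at 33.6, 17.9, 17.9 and 10.7 in WT_CD4 1, WT_CD4 2, Lag3KO_CD4 1 and Lag3KO_CD4 2 and at 56.5, 80.2 and 189 in the CD45 libraries. The genotype effect on Rrm2 differed between the enrichments by 2.33 ± 0.54 (SE) on the log2 scale, with an edgeR adjusted p of 0.345. In this test, added after the CD4 results were seen, none of the 38 tested genes were called (0.0391% of all genes).

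In Tconv over both enrichments 0 of 39 tested genes were called (0% of all genes), 6 had an unadjusted p under 0.05 (3.2% of all genes) and 34 were positive, with a median of 0.27 (0.01 over all genes). Cenpa had the smallest p, with 91.3 and 67.1 CPM in WT_CD4 1 and 2 and 142 and 106 in Lag3KO_CD4 1 and 2. It stood at 66.1 and 93.1 in the libraries labelled WT_CD45 and 133 in Lag3KO_CD45 1. The log2 fold change of Cenpa was 0.68 ± 0.16 (SE; edgeR adjusted p = 1.00). Cenpa was picked by its p in this same comparison. The libraries labelled Lag3KO were higher in both enrichments. After CD45 enrichment this rests on 1 Lag3KO library and on the doubtful label of WT_CD45 2. Birc5 stood at 63.7 and 26.4 against 81.6 and 61.8 in the CD4 libraries and at 35.9 and 81.0 against 117 in the CD45 libraries. Its log2 fold change was 0.76 ± 0.28 (SE) and that of Ube2c, the ubiquitin-conjugating enzyme of the anaphase-promoting complex, 0.70 ± 0.29 (SE), both with an edgeR adjusted p of 1.00. DESeq2 called 0. The direction rested on single libraries: 22 of 38 genes were positive without WT_CD4 2 and 19 of 38 without Lag3KO_CD4 1.

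The CD4 libraries alone gave 0 of 38 calls in Tconv (0.0225% of all genes) and 2 genes with an unadjusted p under 0.05 (2.62% of all genes), Cenpa and Ube2c. Without WT_CD4 1 the count of calls was 1, and the number of positive genes ran from 10 to 35 when each library was left out in turn. The genotype effect between enrichments was called for none of the 40 genes in Tconv (0% of all genes). A difference of the genotype effect between Tregs and Tconv was called for 0 of 39 genes (0% of all genes), with 4 at an unadjusted p under 0.05 (2.16% of all genes) and 32 negative. The smallest p there were those of H2afz (-0.41 ± 0.16, SE), 2810417H13Rik (-1.14 ± 0.45, SE) and Top2a (-0.72 ± 0.31, SE), each a log2 difference with an edgeR adjusted p of 1.00.

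**Figure D4:**
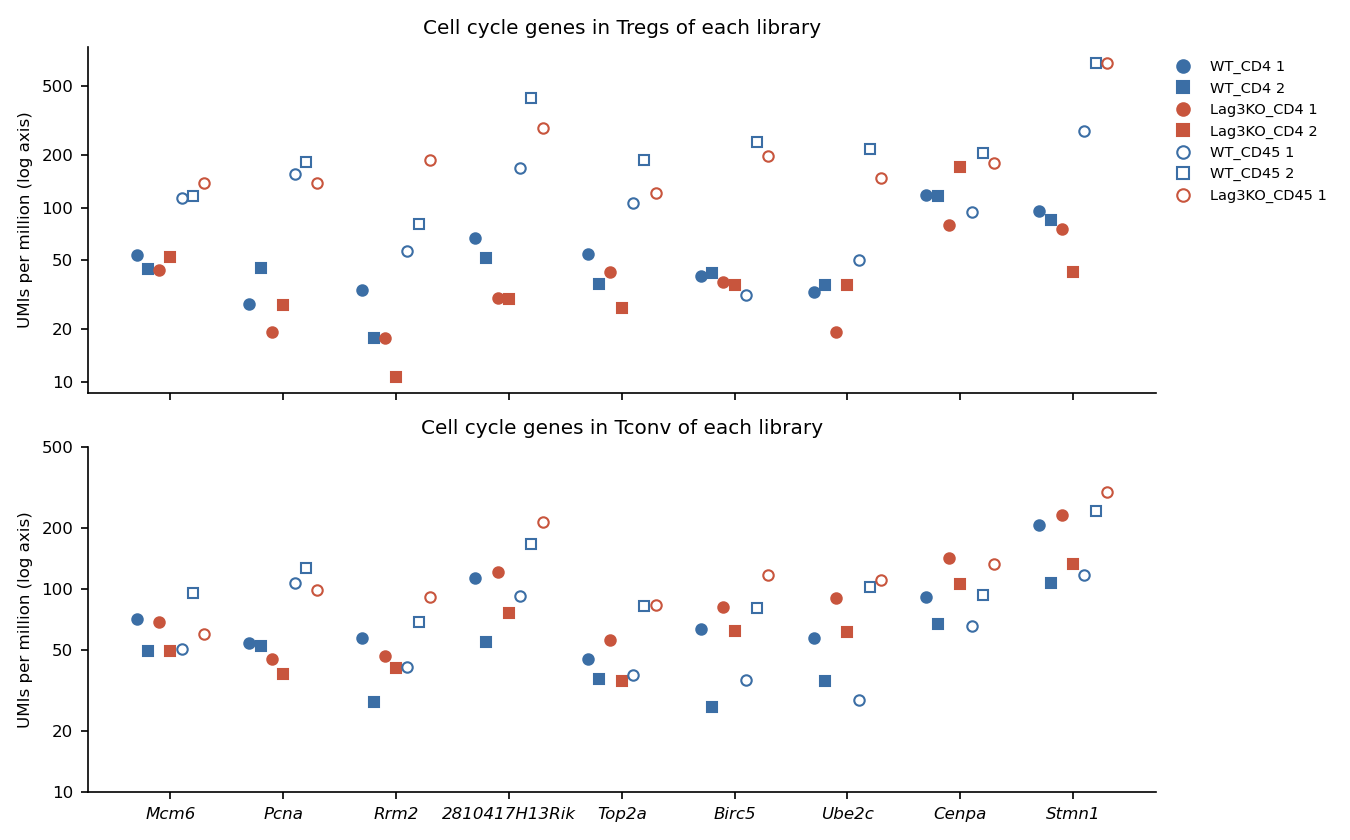
CPM (UMIs per 1000000, log axis) of 9 of the 40 genes in Tregs (top) and Tconv (bottom), 1 point per library, filled for CD4 and open for CD45 libraries, blue for WT and red for Lag3KO. 2810417H13Rik in Tregs stands at 67.2 and 51.3 in the WT_CD4 and 30.4 and 29.8 in the Lag3KO_CD4 libraries and at 170 to 425 in the CD45 libraries.

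Microglia, the resident macrophages of the brain, also cycled in the CD4 libraries, which held 196 such barcodes. Tmem119, a microglia marker, had a UMI in 96.4% of them and Ly6c2, a monocyte marker, in 1.53%. The cycling share was 12.5% (4 of 32), 19.4% (6 of 31), 17.9% (12 of 67) and 28.1% (18 of 64) in WT_CD4 1, WT_CD4 2, Lag3KO_CD4 1 and Lag3KO_CD4 2, and the genotypes overlapped. The difference of the means, 7.09 points, became -0.252 points when barcodes were thinned to 2000 UMIs.

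In a comparison added after these shares were seen, 17 of the 40 genes passed the filter in microglia, and 0 of 17 were called (0.726% of all genes), with 5 at an unadjusted p under 0.05 (9.86% of all genes) and 0 by DESeq2. Ube2c had the smallest p, with 47.4 and 89.0 CPM in WT_CD4 1 and 2 and 154 and 169 in Lag3KO_CD4 1 and 2, at a log2 fold change of 1.20 ± 0.38 (SE; edgeR adjusted p = 0.122). Stmn1 overlapped between genotypes, at 123 and 348 against 259 and 538. Aurkb, a kinase of the chromosomal passenger complex, stood at 19.0 and 8.09 CPM in the WT_CD4 and 59.5 and 49.8 in the Lag3KO_CD4 libraries. These levels rest on 2 and 1 against 17 and 15 UMIs, with an edgeR adjusted p of 0.378. The WT_CD4 values come from 32 and 33 barcodes, and without WT_CD4 2 the count of calls was 2.

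A cluster led by Ccl12 and C1qa had the largest cycling share among the clusters of the CD4 libraries with at least 50 barcodes, 28 of 70 (interval 28.5% to 52.4%). By library it was 7 of 14, 2 of 5, 5 of 23 and 14 of 28. The microglia marker Tmem119 had a UMI in 53.4% of its barcodes, and Ly6c2 in none. It was shallow, with 70 of its 118 barcodes at 1000 UMIs or more and a median of 1731 UMIs in those against 3670 in microglia, and stayed unnamed. In the CD45 libraries the cluster led by Sparc and Cd81, where Tmem119 had a UMI in 63.9% and Ly6c2 in 79.8% of barcodes, cycled at 1.89% (2 of 106), 4.29% (3 of 70) and 4.24% (7 of 165).

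Among the myeloid cells of the CD45 libraries the cluster led by Ctsg and Elane, protease genes of early granulocyte and monocyte precursors, cycled at 19.2% (19 of 99), 19.6% (19 of 97) and 16.4% (12 of 73) in WT_CD45 1, the library labelled WT_CD45 2 and Lag3KO_CD45 1. Monocytes and macrophages cycled at 0.984% (8 of 813), 1.23% (9 of 733) and 0.373% (3 of 805), near the background. Neutrophils of WT_CD45 1, led by the precursor granule genes Ngp and Camp, cycled at 36.4% (8 of 22), those of the library labelled WT_CD45 2 and of Lag3KO_CD45 1 had 1 cycling barcode of 7 and 1 of 12, and those of the CD4 libraries had 1 cycling barcode of 144. The Ctsg and Elane cluster had a larger share than monocytes and macrophages in each of the 3 libraries.

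The genotype comparison within classes of the CD45 libraries sets 1 Lag3KO library against 2 libraries labelled WT, of which 1 had almost no Lag3 UMIs. Its calls assume that the lone library varies like the other 2, and they describe Lag3KO_CD45 1 against these libraries rather than the genotype. In the Ctsg and Elane cluster 38 of the 40 genes were tested and 3 were lower in Lag3KO_CD45 1 (0.37% of all genes were), and DESeq2 called 0. Ccnb1, cyclin B1, had 36, 41 and 6 UMIs in WT_CD45 1, the library labelled WT_CD45 2 and Lag3KO_CD45 1 (50.5, 56.4 and 13.2 CPM), at a log2 fold change of -2.003 ± 0.49 (SE; edgeR adjusted p = 0.0170). Ccna2 stood at 65.9, 98.98 and 26.4 CPM, with -1.64 ± 0.40 (SE; edgeR adjusted p = 0.0181). Nusap1, a spindle protein, had 25, 36 and 4 UMIs, with -2.24 ± 0.58 (SE; edgeR adjusted p = 0.0340). These are mitotic genes, each lowest in Lag3KO_CD45 1. Ccnb1 and Nusap1 met the filter on low counts only through the libraries labelled WT_CD45. The replication gene 2810417H13Rik, which was not called, stood at 241, 290 and 237 CPM. Granule gene UMIs per 10000 moved in the same order, at 24.2, 37.3 and 14.6, and their part in the result was not tested.

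The class with the most calls was the one that joins type 2 conventional and monocyte-derived dendritic cells (cDC2), which take up antigen and prime CD4 T cells. Of the 40 genes 32 passed the filter, and 11 of 32 were lower in Lag3KO_CD45 1 at an edgeR adjusted p under 0.05, where 1.22% of all genes tested were lower, and 0 were higher. They were 8 mitotic genes (Birc5, Top2a, Ube2c, Cenpa, Ccna2, Ccnb2, Cdca8 and Cenpf), the replication gene 2810417H13Rik and the broad genes Stmn1 and Hmgb2. DESeq2 called none of these genes. The calls rest on 1 Lag3KO library, and the spread comes from the 2 libraries labelled WT_CD45 alone. Without the library labelled WT_CD45 2 each genotype has 1 library and no test. The filter on low counts could be met by 1 library. The 8 mitotic genes and 2810417H13Rik, at 0 to 7.97 CPM in Lag3KO_CD45 1, met it only through the libraries labelled WT_CD45. The count of called genes is therefore a description.

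Stmn1 stood at 77.5, 95.5 and 15.9 CPM in cDC2 of WT_CD45 1, the library labelled WT_CD45 2 and Lag3KO_CD45 1. Its log2 fold change was -2.49 ± 0.33 (SE; edgeR adjusted p = 1.82e-10). Hmgb2 stood at 260, 311 and 114, with -1.39 ± 0.21 (SE; edgeR adjusted p = 5.67e-08). For both genes Lag3KO_CD45 1 lay below the other 2 libraries, including the one with almost no Lag3 UMIs. Top2a had 54, 32 and 5 UMIs, with -2.81 ± 0.51 (SE; edgeR adjusted p = 1.28e-05), and Ube2c 62, 29 and 5 UMIs, with -2.89 ± 0.50 (SE; edgeR adjusted p = 4.36e-06). 2810417H13Rik had 43, 62 and 7 UMIs, with -2.63 ± 0.46 (SE; edgeR adjusted p = 4.36e-06).

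The remaining calls rest on few UMIs. Cenpa had 55, 32 and 8 UMIs, at a log2 fold change of -2.16 ± 0.45 (SE; edgeR adjusted p = 0.000392). Birc5 had 47, 25 and 1 UMIs, Ccna2 had 32, 7 and 1, Ccnb2 had 26, 12 and 1 and Cdca8 had 20, 13 and 1. Cenpf had 17, 14 and 0 UMIs, where a count of 0 allows up to 3. H2afz did not follow them, at 1652, 1724 and 1657 CPM, and Tuba1b stood at 502, 497 and 591 and Pcna at 40.2, 54.5 and 40.9.

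These differences sat in few cells. The cycling share of cDC2 was 3.92% (8 of 204), 5.58% (11 of 197) and 1.05% (2 of 190), with overlapping intervals, and Lag3KO_CD45 1 was lower by 3.70 points on the mean and by 2.87 points without the library labelled WT_CD45 2. The 8 cycling barcodes of WT_CD45 1 held 396 of the 464 UMIs of the mitotic genes in its cDC2, the 11 of the library labelled WT_CD45 2 held 221 of 283 and the 2 of Lag3KO_CD45 1 held 7 of 54. The class joins 2 clusters, and in the one led by Cd209a and Cd209d 3 of 48, 2 of 38 and 0 of 79 barcodes cycled, where 0 of 79 allows a share of up to 3.797%. In the one led by Ccl17 and H2-DMb2 5 of 156, 9 of 159 and 2 of 111 cycled, so both clusters had their lowest share in Lag3KO_CD45 1. The Cd209a cluster made up 48 of 204, 38 of 197 and 79 of 190 barcodes of the class in the 3 libraries. Monocyte marker UMIs were alike in the class, at 50.2, 54.8 and 50.8 per 10000, but cDC2 marker UMIs were not, at 37.4, 21.3 and 35.7. Median depth was 6074, 5663 and 5065 UMIs. The part of this make-up in the result was not tested.

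**Figure D5:**
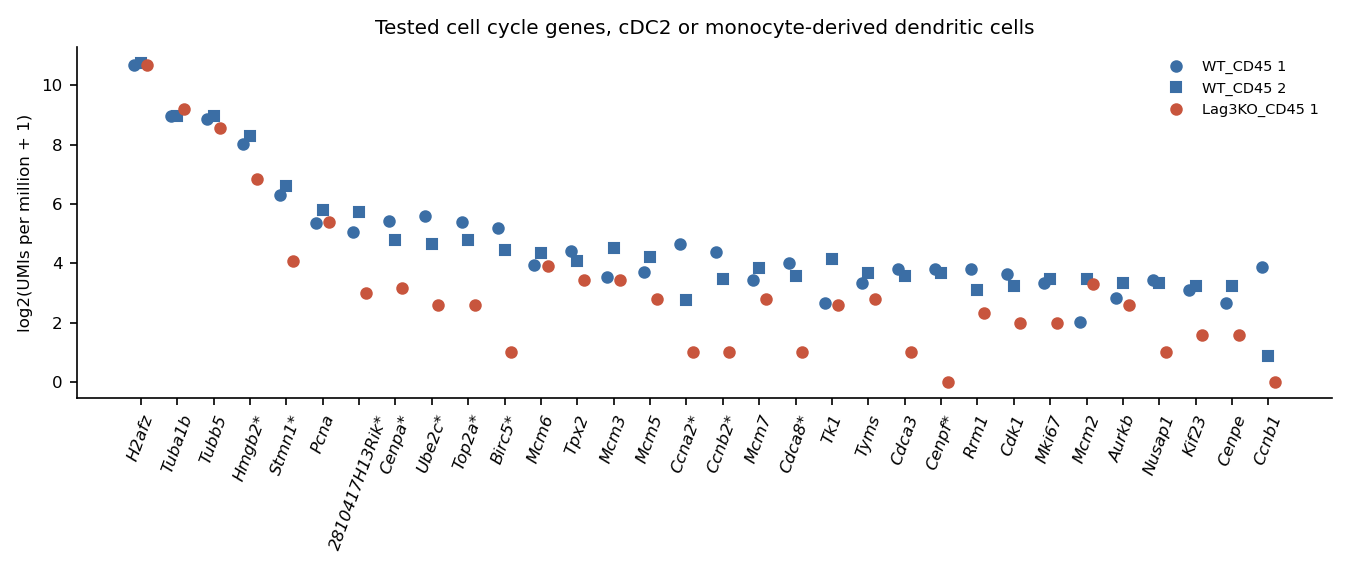
Log2(CPM + 1), where CPM are UMIs per 1000000, of the 32 tested genes in cDC2 or monocyte-derived dendritic cells of the 3 CD45 libraries, blue for WT and red for Lag3KO, with an asterisk at the 11 genes with an edgeR adjusted p under 0.05. The asterisked genes stand lower in the Lag3KO_CD45 library, and H2afz stands level at 1652, 1724 and 1657 CPM.

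Type 1 conventional dendritic cells (cDC1), which cross-present antigen, had 2 of 24 tested genes lower in Lag3KO_CD45 1 (0.322% of all genes were), and DESeq2 called 0. These calls, too, rest on 1 Lag3KO library and on the doubtful label of 1 of the other 2. Top2a met the filter on low counts only through the libraries labelled WT_CD45. Top2a had 16, 28 and 0 UMIs in WT_CD45 1, the library labelled WT_CD45 2 and Lag3KO_CD45 1 (edgeR adjusted p = 0.000700), where 0 allows up to 3. 2810417H13Rik had 29, 91 and 13 UMIs, with a log2 fold change of -1.72 ± 0.42 (SE; edgeR adjusted p = 0.0147). The cycling share of cDC1 was 6.90% (4 of 58), 10.5% (6 of 57) and 3.70% (2 of 54), with overlapping intervals. Without the filter on low counts neither gene was called.

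In the other classes of the CD45 libraries edgeR and DESeq2 called none of the tested genes. The genes tested were 33 in monocytes and macrophages and 34 in the Sparc and Cd81 cluster, where edgeR called 0% of all genes. They were 14 in natural killer cells (0.0392% of all genes called). In B cells 12 were tested (0.458% of all genes called). In migratory and in plasmacytoid dendritic cells 5 each were tested (1.11% and 0.627% of all genes called). Top2a in monocytes and macrophages, at 59, 55 and 10 UMIs, had the smallest p among these classes, with a log2 fold change of -2.44 ± 0.38 (SE; edgeR adjusted p = 0.316). Without the filter 6 of the 40 genes were called in that class.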

How the data were processed

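Droplet single-cell RNA-seq counts (10x 3′ kit v2) of 7 libraries were used. The authors deposited UMI counts per gene and barcode; Cell Ranger and Seurat on GRCm38 (mm10) are named per the submitters' processing notes, and software_version 3.0.2 stands in the matrix headers of the CD4 files. Genes common to all files were used.

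Barcodes with at least 200 genes and at most 10% mitochondrial UMIs were kept. Doublet-like barcodes (0.8% per 1000 barcodes, by simulated neighbours) were removed from the classes, and barcodes with at least 2 T cell UMIs and high myeloid UMIs (at least 100 per 10000) were set apart, 22 to 59 per CD4 and 440 to 613 per CD45 library. The 2000 most variable genes gave 30 components, 15 neighbours and Leiden clusters at resolution 1.0, named by marker scores. Before that choice the listed cell cycle genes, sex-linked genes and haemoglobin genes were left out. Another 112 (CD4) and 168 (CD45) genes that followed the cycle by correlation were left out as well. Because free RNA was not removed, the shares of classes taken to divide little serve as the background in the CD45 libraries.

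Counts were summed per library and class (at least 20 barcodes) and tested with edgeR 4.0.16 (R 4.3.3; TMM, filterByExpr, quasi-likelihood, Benjamini-Hochberg over all genes tested), with DESeq2 1.42.0 as an alternative. The fits were tested on simulated data. Python 3.11.15, scipy 1.17.1 and leidenalg 0.10.2 were used. Each of the 40 genes called, or else the 3 with the smallest p, is named, with the 10 smallest p per direction outside the 40. The genes, lists and tests were chosen with earlier results of these data known. Other choices, among them thinning depth, the UMI minimum and leaving out each library, were tried as alternatives. The results of some genes are not reported here.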

Additional observations from a re-analysis of the deposited data

Results flagged for a closer look

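Among classes with at least 10 cycling barcodes over the CD45 libraries and at least 20 barcodes in each, the share of cycling barcodes in Lag3KO_CD45 1 lay outside both libraries labelled WT_CD45 in 5, and in opposite directions between classes. Against the mean of the libraries labelled WT_CD45, 1 of which had almost no Lag3 UMIs, it was higher in Tconv by 6.61 points. It was lower in the other 4 classes, with a difference of -5.01 points in cDC1, -3.70 points in cDC2 or monocyte-derived dendritic cells, -2.95 points in the Ctsg and Elane cluster and -0.733 points in monocytes and macrophages. Tregs, natural killer cells and the Sparc and Cd81 cluster also met these limits. In them the share in Lag3KO_CD45 1 lay between those of the libraries labelled WT_CD45. A lone library often lies outside both of the others without any difference between groups. Whether the genotype effect differs between the classes was not tested. The shares of Tconv turned to the other sign without thinning.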

How the results depend on the processing

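Recomputed under another choice, 121 values stayed alike, 25 moved and 10 changed sign, and the cause was not tested. For counts of genes, alike means an equal or similar number and takes no account of the direction of fold changes. For differences of shares it means the same sign and a shift smaller than the spread between libraries. Without the filter on low counts the calls among the 40 genes became 1 in Tregs of the CD4 libraries, 3 in Tconv over both enrichments, 6 in monocytes and macrophages, 0 in cDC1 and 1 for Tregs against Tconv. DESeq2 gave 0 in cDC1, cDC2 and the Ctsg and Elane cluster. A haemoglobin term gave 2 in Tregs of the CD4 libraries. Leaving out each library gave 0 to 1 calls in Tregs (1 without WT_CD4 2), 0 to 1 in Tconv of the CD4 libraries (1 without WT_CD4 1) and 0 to 2 in microglia (2 without WT_CD4 2). Outside the 40 genes, Tregs alone gave 305 calls against 1615 (chosen after the data were seen), and leaving out each library 1238 to 1585. The 150 bases before the start gave a CHR in 5 mitotic and 1 replication gene and an E2F motif in 2 replication genes.

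Differences of cycling shares in points follow. Lag3KO minus WT in Tregs of the CD4 libraries was -2.05, and became -3.45 at 2000 UMIs, -0.270 with at least 3 UMIs, -3.59 unthinned, -1.65 with doublets kept, -1.61 with mixed barcodes left in and -2.34 to -1.75 without each library. In Tregs of the CD45 libraries 6.11 became -1.24 without WT_CD45 1 and 13.5 without the library labelled WT_CD45 2. In Tconv of the CD4 libraries 0.343 became 3.34 at 2000 UMIs, -0.0462 with doublets kept, -0.0158 with mixed barcodes left in and -1.61 (without Lag3KO_CD4 1) to 2.30, with -0.893 without WT_CD4 2. In Tconv of the CD45 libraries 6.61 became -1.27 unthinned and 3.09 to 10.1 without each WT library. In microglia 7.09 became -0.252 at 2000 UMIs and 1.98 to 12.2 without each library. Treg minus Tconv was 0.729 in the CD4 libraries and became -2.96 at 2000 UMIs, -1.45 with at least 3 UMIs, 5.61 unthinned and -0.00826 (without WT_CD4 2) to 1.68; in the CD45 libraries 20.1 became 13.6 with at least 3 UMIs, 25.7 unthinned and 18.1 to 21.9 without each library.

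No paired analysis was possible because the replicate numbers only name the libraries. Leaving out a WT library in classes of the CD45 libraries alone left no residual degrees of freedom and was not run. Depth limits the thinned call: without thinning, 16.8% to 58.5% of Tregs met it in the libraries.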

Other observations

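The cycling barcodes of the Ctsg and Elane cluster lay mostly (44 of 50) among those with granule gene transcripts (Mpo, Elane, Ctsg, Prtn3 and Ms4a3, chosen after the values were seen). With at least 2 UMIs of these genes, 40.5% (17 of 42), 37.8% (17 of 45) and 32.3% (10 of 31) of barcodes cycled in WT_CD45 1, the library labelled WT_CD45 2 and Lag3KO_CD45 1. With fewer, 3.51% (2 of 57), 3.85% (2 of 52) and 4.76% (2 of 42) did. Median depth differed too, at 8768 and 4834 UMIs over the 3 libraries. The cycling call was made on thinned counts, but the granule split was not, so deeper barcodes met it more easily. The part of depth in the result was not tested. Among monocytes and macrophages the same split gave 3.35% (6 of 179) and 0.645% (14 of 2172).

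Outside the 40 genes, Lockd, a transcript next to Cdkn1b, was lower in Lag3KO Tregs, at a log2 fold change of -0.95 ± 0.19 (SE; edgeR adjusted p = 0.0324) over both enrichments and -1.08 ± 0.18 (SE; edgeR adjusted p = 0.0202) in the CD4 libraries. It was 1 of 25 and of 16 tested genes of the list of other mitotic genes, of which no other was called in Tregs. Of all genes tested 0.172% and 0.14% were called. In cDC2, the other mitotic genes Cks1b and Spc24 and the histone gene H2afx were lower in Lag3KO_CD45 1, at -1.24, -3.13 and -1.12 on the log2 scale. These genes were picked by the test. None of the 11 tested other mitotic genes was positive, with a median of -1.30. The values rest on 1 Lag3KO library and on the doubtful label of WT_CD45 2. The filter on low counts could be met by the libraries labelled WT_CD45 alone, so the values are a description.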
